A study of Mus musculus with 6 samples.

Results

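Interferons, interleukin-4, interleukin-13 and interleukin-10 act through receptors built from unlike chains that recruit Janus kinases and STAT transcription factors. The suppressors of cytokine signalling, SOCS1 and SOCS3, are induced by this signalling and shut it down again. The genes described here are the chains of the type I interferon receptor (Ifnar1, Ifnar2), of the interferon gamma receptor (Ifngr1, Ifngr2), of the type II IL-4 receptor (Il4ra, Il13ra1) and of the IL-10 receptor (Il10ra, Il10rb), with Socs1 and Socs3. They were taken by symbol from the deposited table, where each of the 10 had 1 row among 40303 gene models, and all 10 were among the 13557 genes that averaged 10 normalized counts or more over the libraries and were tested. They were chosen with the difference between the treatment groups known, above all that Il13ra1 was lower in treated tumours. Differences between the groups are therefore given for them as a description, without p-values.

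The tumours were grown under the skin of wild-type BALB/c mice from CT26, a poorly differentiated colon carcinoma line derived from that strain. In the PEG-glutaminase group 3 mice received intraperitoneal PEGylated glutaminase, an enzyme that breaks down circulating glutamine, at 50 IU per kg. In the vehicle group 3 mice received phosphate-buffered saline with 10% glycerol. Injections were given every 3 days, 2 in all, and each tumour gave 1 poly-A RNA library, so each value is the RNA of whole tumour tissue with its immune and stromal cells.

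Recovered reads numbered 16455052 to 16791267 per library in the PEG-glutaminase group and 17380129 to 18051480 in the vehicle group. Epithelial markers were low in every library, with a summed signal of 244 to 284 normalized counts over 9 genes in PEG-glutaminase tumours and 214 to 404 in vehicle tumours, and none was listed at 0 in all 6 libraries. Skin genes, summed over 10 markers, reached 95.0 to 113 normalized counts in PEG-glutaminase tumours, against 8366 in vehicle 1, which stood apart, and 123 and 294 in the other vehicle tumours. PEG-glutaminase 2 stood apart by T and NK cell markers, which summed to 684 normalized counts over 13 genes, against 2019 and 3776 in the other PEG-glutaminase tumours and 4615 to 5321 in vehicle tumours. Differences of single genes and list medians are given with the values that leaving out 1 library gave, where these moved them by over 1.5 times.

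In treated tumours Il13ra1 stood at 62.8% of its vehicle mean, Socs3 at 76.6% and Socs1 at 77.2%, and in these 3 genes the groups did not overlap. In the other 7 the groups overlapped. Il10ra stood at 82.2%, Ifnar2 at 87.9% and Ifngr1 at 89.3% of the vehicle mean, and Il10rb, Ifnar1, Ifngr2 and Il4ra lay between 97.3% and 104%. All 3 genes without overlap were lower, beside a background of 12.7% of tested genes that were lower without overlap and 25.8% without overlap in either direction. At an adjusted p of 0.05, limma called 0 of the 10, where it called 0.0369% of all tested genes, 0.00738% higher and 0.0295% lower. edgeR also called 0 of the 10, with 0.00738% of genes higher and 0.0295% lower. At an unadjusted p under 0.05 in limma the count was 3 of the 10, beside 18.4% of tested genes. DESeq2 called 1 of them, Il13ra1, as lower, where it called 2.04% of tested genes lower. Since the genes were chosen on this contrast, nothing is read from these counts.

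**Figure D1:**
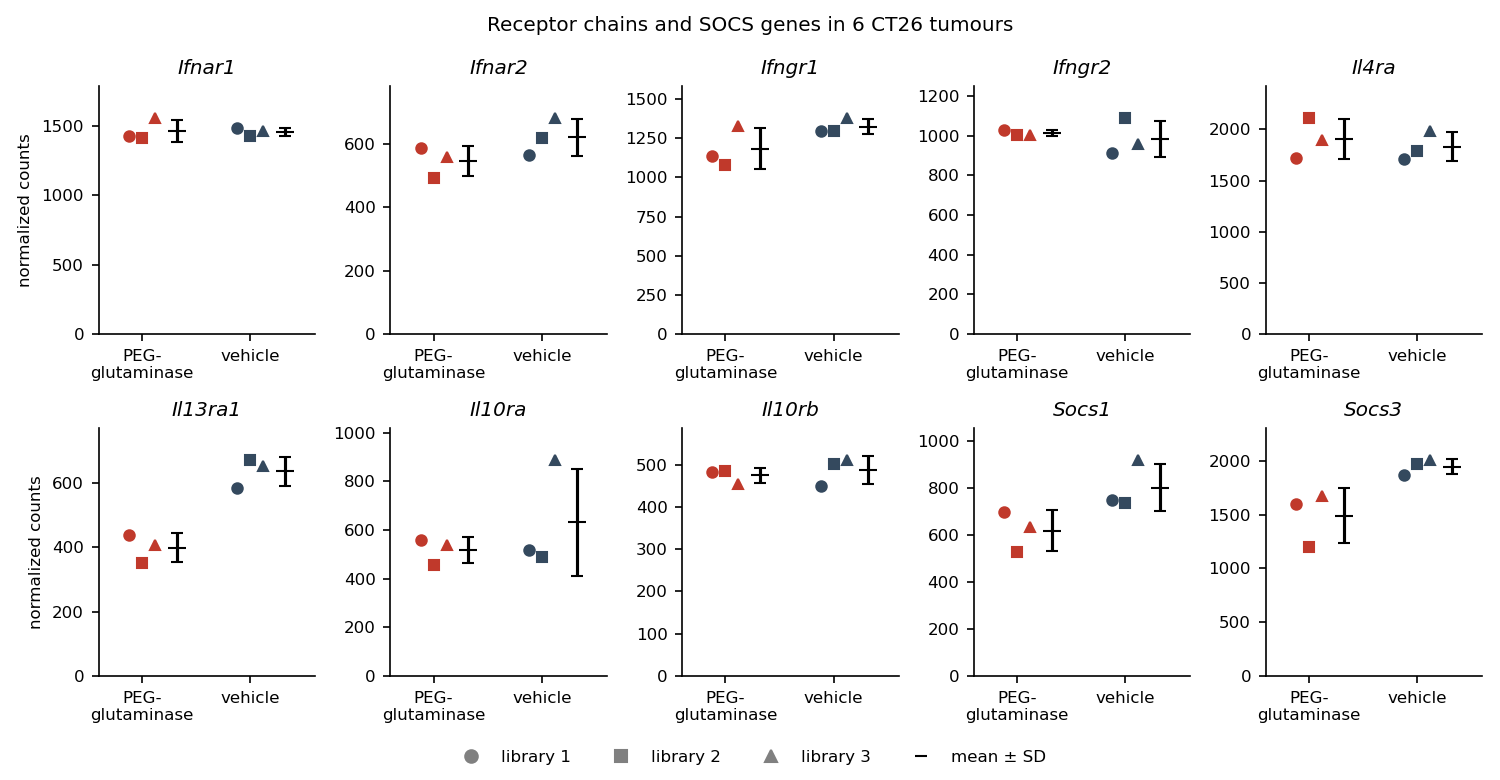
Normalized counts of the 10 genes in each library, PEG-glutaminase tumours at the left and vehicle tumours at the right of each panel, with the mean and SD of the 3 libraries beside the points. The groups are apart for Il13ra1, Socs1 and Socs3, and the single high point for Il10ra is vehicle 3 at 886 normalized counts.

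Levels of different genes were compared per kilobase of the longest annotated transcript, over all 6 libraries. The order of the genes and the ratios between them depend on these lengths, and shorter transcripts of a gene were not considered. Socs3 was the most abundant of the 10, with a mean level of 673 ± 118 normalized counts per kb (SD, n = 6 libraries), at the 85.8th percentile of tested genes. Ifngr1 followed at 593 ± 55.6 per kb, and the ranges of these genes overlapped. Ifnar1 at 374 ± 13.6 and Il4ra at 355 ± 30.1 per kb formed the next pair and also overlapped each other. Every library had more Ifngr1 than Ifnar1 and more Il4ra than Ifngr2 per kb, with no overlap of the ranges.

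Ifngr2 stood at a level of 270 ± 16.3 per kb, Socs1 at 245 ± 44.9 and Ifnar2 at 191 ± 20.6 (SD, n = 6 libraries each). Neighbours in this order overlapped, although Socs1 was above Ifnar2 within each of the 6 libraries. The lowest levels were those of Il10rb at 172 ± 8.74, Il10ra at 164 ± 44.8 and Il13ra1 at 140 ± 36.7 per kb, whose ranges overlapped. The lowest read count behind any of these values was 354, for Il13ra1 in PEG-glutaminase 2.

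**Figure D2:**
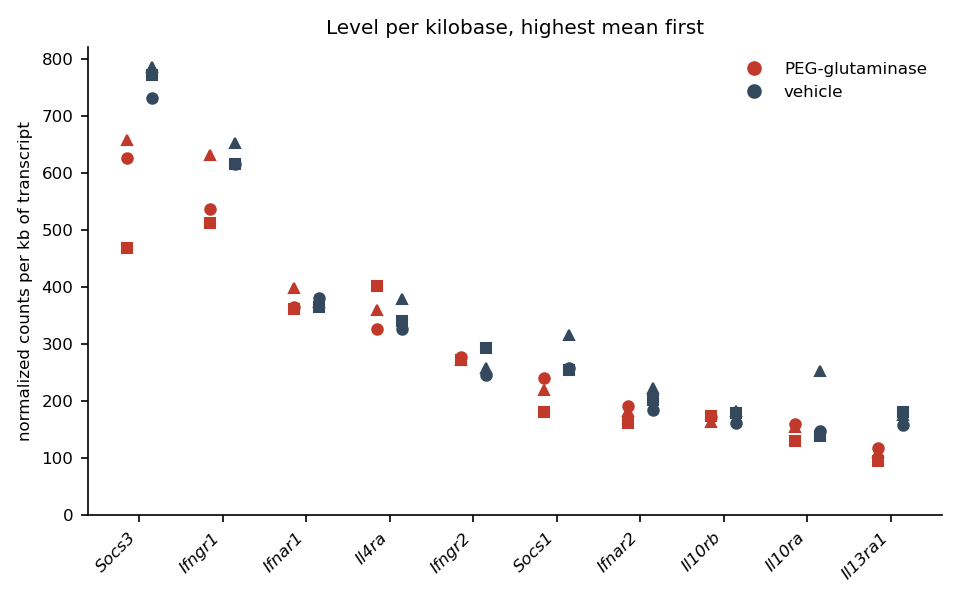
Level of each gene in normalized counts per kilobase of its longest transcript, with PEG-glutaminase libraries at the left and vehicle libraries at the right of each position and genes ordered by their mean over 6 libraries. Socs3 and Ifngr1 are the most abundant, and Il13ra1 is the least abundant at 94.4 to 119 per kb in PEG-glutaminase tumours and 158 to 181 per kb in vehicle tumours.

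The type I interferon receptor pairs IFNAR1, which carries the kinase TYK2, with the high-affinity ligand-binding chain IFNAR2, which carries JAK1. Ifnar1 had 1426, 1414 and 1555 normalized counts in PEG-glutaminase tumours 1, 2 and 3, against 1485, 1427 and 1463 in vehicle tumours 1, 2 and 3. The groups overlapped, and the log2 difference of 0.01 ± 0.08 (SE) was the smallest of the 10, lying between -0.04 and 0.03 with 1 library left out. Ifnar2 had 585, 493 and 557 normalized counts in PEG-glutaminase tumours, against 563, 617 and 680 in vehicle tumours. PEG-glutaminase 2 and 3 lay below all vehicle tumours and PEG-glutaminase 1 lay within their range, with a log2 difference of -0.19 ± 0.11 (SE). The difference of Ifnar2 lay between -0.25 and -0.12 with 1 library left out, and it was nearest to 0 when either PEG-glutaminase 2 or vehicle 3 was removed.

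The interferon gamma receptor consists of the ligand-binding IFNGR1, which carries JAK1, and IFNGR2, which carries JAK2. Ifngr1 had 1134, 1082 and 1331 normalized counts in PEG-glutaminase tumours, against 1298, 1298 and 1377 in vehicle tumours. PEG-glutaminase 3 lay within the vehicle range and the other treated tumours below it, with a log2 difference of -0.17 ± 0.09 (SE). For Ifngr1 this was -0.11 without PEG-glutaminase 2 and -0.26 without PEG-glutaminase 3. Ifngr2 had 1030, 1006 and 1006 normalized counts in PEG-glutaminase tumours, all inside the vehicle range of 913 to 1088. Its log2 difference was 0.04 ± 0.09 (SE), -0.01 without vehicle 1, 0.12 without vehicle 2 and 0.02 without vehicle 3.

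Ifnar2, Il10rb, Ifnar1 and Ifngr2 lie beside each other on mouse chromosome 16, in this order and on the same strand in the GENCODE M21 annotation. A read-through gene, Gm21970, spans Ifnar2 and Il10rb there, but its row was listed at 0 in all 6 libraries. In this run the largest difference was that of Ifnar2. Ifngr1 lies on chromosome 10, Il4ra on chromosome 7, Il10ra on chromosome 9, Il13ra1 on chromosome X, Socs1 on chromosome 16 and Socs3 on chromosome 11. Il4ra and Il10ra overlap genes of the opposite strand in that annotation, the antisense Gm44876 and the pseudogene Gm20612. Gm44876 was listed at 0 in every library and Gm20612 reached at most 2.07 normalized counts.

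IL-4 binds IL-4Rα, which then pairs either with the common gamma chain in the type I receptor or with IL-13Rα1 in the type II receptor. The type II receptor also responds to IL-13, and both forms act through STAT6, a signal best known for alternative activation of macrophages. Il13ra1 had 440, 350 and 408 normalized counts in PEG-glutaminase tumours 1, 2 and 3, against 585, 671 and 654 in vehicle tumours 1, 2 and 3. Every treated tumour lay below every vehicle tumour, which is the difference on which the genes were chosen. The means were 400 ± 45.5 normalized counts in PEG-glutaminase tumours and 637 ± 45.4 in vehicle tumours (SD, n = 3 each).

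The log2 difference of Il13ra1 was -0.67 ± 0.11 (SE), the largest of the 10 in size. It stood at -0.58 when PEG-glutaminase 2 was left out, at -0.73 when vehicle 1 was, at -0.64 when both were, and at -0.75 to -0.58 over all 6 ways of leaving out 1 library. In bulk tumour RNA, fewer cells that express a gene and less of its RNA per cell cannot be told apart.

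Il4ra had 1717, 2108 and 1892 normalized counts in PEG-glutaminase tumours, against 1713, 1791 and 1989 in vehicle tumours. The groups overlapped, PEG-glutaminase 2 was the highest tumour, and the log2 difference was 0.06 ± 0.10 (SE). Leaving out 1 library put the difference of Il4ra between -0.02, without PEG-glutaminase 2, and 0.13, without PEG-glutaminase 1. The ratio of Il4ra to Il13ra1 per kb was therefore 2.76, 4.25 and 3.27 in PEG-glutaminase tumours 1, 2 and 3, against 2.07, 1.89 and 2.15 in vehicle tumours 1, 2 and 3. This ratio averaged 3.42 ± 0.76 in PEG-glutaminase tumours and 2.03 ± 0.13 in vehicle tumours (SD, n = 3 each), without overlap. Since Il4ra overlapped, this ratio carries the Il13ra1 difference on which the genes were chosen, and nothing is read from it. In the other 3 receptors the ratio of the chains overlapped.

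**Figure D3:**
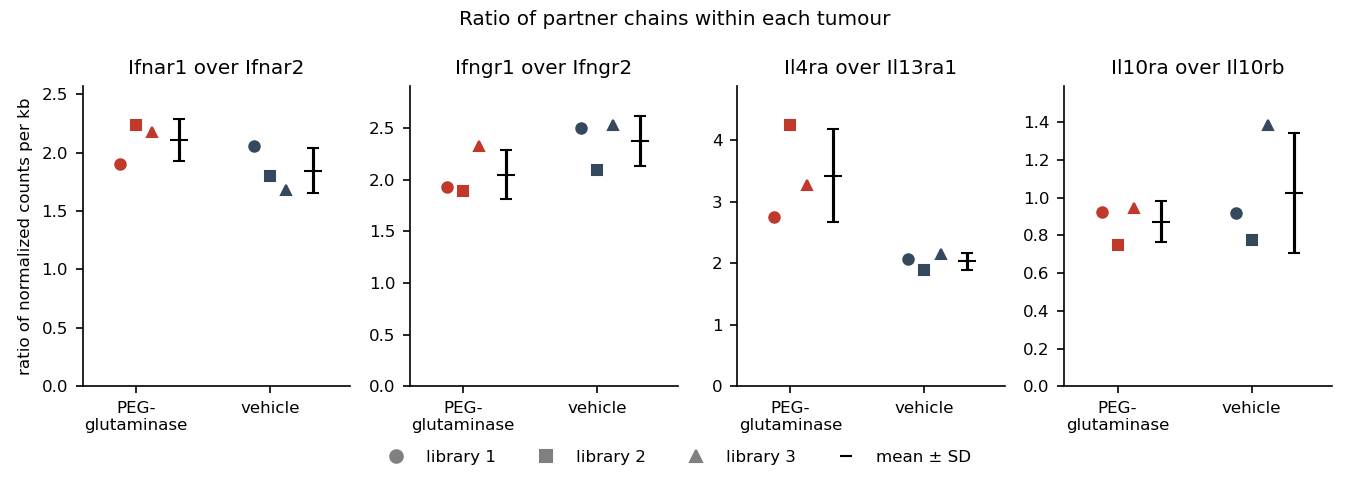
Ratio of the levels per kilobase of the chains of each receptor within each tumour, PEG-glutaminase left and vehicle right, with the mean and SD of 3 libraries. The ratio of Il4ra to Il13ra1 is 2.76 to 4.25 in PEG-glutaminase tumours and 1.89 to 2.15 in vehicle tumours, and the groups overlap for the other receptors.

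The other partner of IL-4Rα and the second receptor of IL-13 overlapped between the groups. Il2rg, the common gamma chain, averaged 714 ± 103 normalized counts in PEG-glutaminase tumours and 778 ± 95.3 in vehicle tumours (SD, n = 3 each), with overlap and a log2 difference of -0.13 ± 0.13 (SE), between -0.22 and -0.01 with 1 library left out. The ratio of Il4ra to Il2rg per kb was 0.87 ± 0.21 in PEG-glutaminase tumours and 0.75 ± 0.05 in vehicle tumours (SD, n = 3 each), and overlapped. Il13ra2, which encodes a receptor that binds IL-13 with high affinity and is best known as a decoy, had 16.6, 55.4 and 21.6 normalized counts in PEG-glutaminase tumours, against 33.8, 25.5 and 28.4 in vehicle tumours. PEG-glutaminase 2 was the highest tumour for Il13ra2 and the lowest for Il13ra1.

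By pattern over the 6 libraries, the genes most like Il13ra1 among 10333 genes averaging 100 normalized counts or more were Phax, an RNA export factor, Tmem218 and Bin3, with Pearson r of 0.99 each. Tmem218 had 97.4, 80.2 and 98.8 normalized counts in PEG-glutaminase tumours, against 135, 157 and 147 in vehicle tumours. The points share 6 libraries in 2 groups, so these r values include the difference between the groups.

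The IL-10 receptor consists of IL-10Rα, found mainly on leukocytes, and the widely expressed IL-10Rβ, which IL-22 and type III interferon receptors also use. Il10ra had 558, 457 and 540 normalized counts in PEG-glutaminase tumours, against 518, 489 and 886 in vehicle tumours. Vehicle 3 was far above the other 5 libraries, which overlapped. The log2 difference was -0.23 ± 0.23 (SE) with all libraries and 0.04 without vehicle 3, so its sign rested on that tumour. Removing PEG-glutaminase 2 gave -0.15, and removing vehicle 2 gave -0.39. The 14 macrophage markers summed to 48404 to 55033 normalized counts in PEG-glutaminase tumours and 43684 to 59625 in vehicle tumours, with the highest sum in vehicle 3 and none listed at 0 in all libraries. By log2 difference 7 of these markers were higher and 7 lower. Lyz2 and Cd163 were higher without overlap, beside 13.1% of all tested genes, and 0 were lower without overlap. The part of these markers in the level of Il10ra was not tested.

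Il10rb had 483, 486 and 455 normalized counts in PEG-glutaminase tumours, against 450, 502 and 510 in vehicle tumours. The groups overlapped, with a log2 difference of -0.04 ± 0.10 (SE), between -0.09 and -0.0036 with 1 library left out. The ratio of Il10ra to Il10rb per kb was 0.87 ± 0.11 in PEG-glutaminase tumours and 1.03 ± 0.32 in vehicle tumours (SD, n = 3 each), where vehicle 3 alone stood at 1.39.

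SOCS1 blocks JAK1, JAK2 and TYK2 below the interferon receptors and is a strong brake on interferon gamma signalling. Socs1 had 697, 528 and 636 normalized counts in PEG-glutaminase tumours, against 751, 739 and 919 in vehicle tumours. Each treated tumour lay below each vehicle tumour, though PEG-glutaminase 1 and vehicle 2 were near each other. The means were 620 ± 85.8 in PEG-glutaminase tumours and 803 ± 101 in vehicle tumours (SD, n = 3 each), and the log2 difference was -0.37 ± 0.13 (SE). Leaving out PEG-glutaminase 2 gave -0.26, leaving out vehicle 3 gave -0.27, and leaving out PEG-glutaminase 2 with vehicle 1 gave -0.31.

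SOCS3 binds the gp130 chain of the IL-6 receptor family and limits STAT3 signalling, and its gene is induced by IL-6 and IL-10. Socs3 had 1598, 1196 and 1677 normalized counts in PEG-glutaminase tumours, against 1867, 1968 and 2005 in vehicle tumours. The groups did not overlap, PEG-glutaminase 2 was the lowest by a wide margin, and the vehicle tumours lay close together. The means were 1490 ± 258 in PEG-glutaminase tumours and 1947 ± 71.4 in vehicle tumours (SD, n = 3 each). The log2 difference was -0.40 ± 0.12 (SE), and without PEG-glutaminase 2 it was -0.25, a drop in size of over 1.5 times. The ratio of Socs3 to Socs1 per kb was 2.73 ± 0.24 in PEG-glutaminase tumours and 2.78 ± 0.28 in vehicle tumours (SD, n = 3 each).

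**Figure D4:**
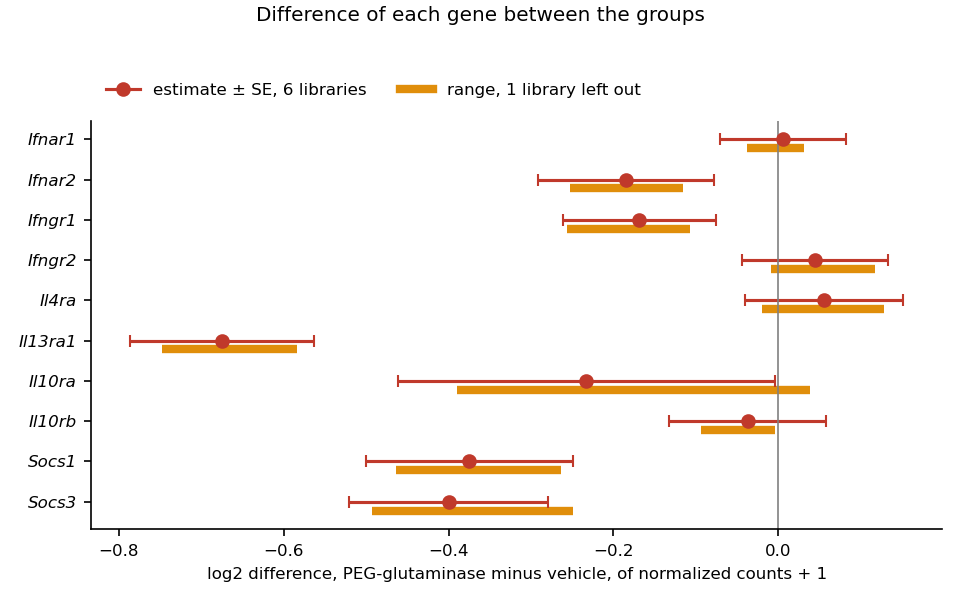
Log2 difference of each gene, PEG-glutaminase minus vehicle, with its SE from limma (points and thin bars), and the range of the same difference when each of the 6 libraries is left out in turn (thick bars). Il13ra1, Socs1, Socs3, Ifnar2, Ifngr1 and Il10rb stay below 0 throughout, and the ranges of Il10ra, Ifnar1, Ifngr2 and Il4ra cross 0.

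The genes differed in how they varied within a group. In PEG-glutaminase tumours the coefficient of variation ran from 1.34% for Ifngr2 to 17.3% for Socs3. In vehicle tumours it ran from 1.98% for Ifnar1 to 35.1% for Il10ra. PEG-glutaminase 2 was the lowest library for 7 of the 10 genes, the exceptions being Ifngr2, Il4ra and Il10rb. Vehicle 3 was the highest library for 6 of the 10, namely Ifnar2, Ifngr1, Il10ra, Il10rb, Socs1 and Socs3.

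The promoters of Il13ra1, Socs1 and Socs3 are shown because these are the genes in which the groups did not overlap. The start is that of RefSeq, and the sequences are RefSeq's for the C57BL/6J build GRCm38.p6, 250 bases before the start for Il13ra1 and Socs1 and a short stretch for Socs3. Capitals mark matches on either strand to any of 3 motifs. The gamma-activated motif, bound by STAT dimers, is TTC and GAA separated by 3 bases of any kind, and the form favoured by STAT6 is TTC and GAA separated by 4. The interferon response motif, bound by interferon regulatory factors, is GAAA and GAAA separated by 2.
Il13ra1, chrX:36111858-36112107, plus strand: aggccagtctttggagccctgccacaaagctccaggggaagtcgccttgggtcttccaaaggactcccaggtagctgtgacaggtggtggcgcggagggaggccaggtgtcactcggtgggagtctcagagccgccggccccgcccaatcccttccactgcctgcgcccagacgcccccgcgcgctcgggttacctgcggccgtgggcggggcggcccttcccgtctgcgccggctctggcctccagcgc
Socs1, chr16:10785537-10785786, minus strand: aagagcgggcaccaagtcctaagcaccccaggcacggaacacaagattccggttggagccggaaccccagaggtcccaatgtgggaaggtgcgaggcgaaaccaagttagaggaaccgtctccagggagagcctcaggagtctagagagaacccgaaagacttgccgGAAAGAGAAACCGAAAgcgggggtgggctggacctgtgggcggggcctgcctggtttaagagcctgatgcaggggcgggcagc
Socs3, chr11:117969502-117969530, minus strand: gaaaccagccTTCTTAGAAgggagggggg

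Il13ra1 had no match to the 3 motifs in its 250 bases. Socs1 had 2 overlapping matches to the interferon response motif, beginning 83 and 77 bases before the start, a motif found in 2.98% of 32851 mouse promoter windows of the same length. Socs3 had 1 match to the gamma-activated motif, beginning 154 bases before the start and shown with its flanks, a motif found in 7.02% of windows. GENCODE M21 places this stretch within the Socs3 gene. Ifnar2 also held 1 match to the gamma-activated motif and Ifngr2 held 1 match to the STAT6 form, which 5.85% of windows hold. Ifnar1, Ifngr1 and Il4ra held none, and Il10ra and Il10rb had no entry among these sequences. A match is a description of the letters and was not tested for binding.

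The rest of the pathway was read from lists, in which limma and edgeR called 0 genes each. In these and the marker lists, higher and lower are by the log2 difference, by which 50.0% of all tested genes were lower. The shares of all tested genes to set beside the list counts are 18.4% at an unadjusted p under 0.05 in limma, 12.7% lower and 13.1% higher without overlap, and 2.04% called lower and 1.65% called higher by DESeq2. At an unadjusted p under 0.05 in limma the counts were 11 of 16 interferon gamma targets, 8 of 13 type I interferon targets, 4 of 12 IL-4 and IL-13 targets and 3 of 12 IL-10 and STAT3 targets. They were 3 of 7 STAT genes, 1 each among the ligands, gp130 family, other SOCS genes and other inhibitors, and 0 among the Janus kinases and related chains. The lists were also chosen with earlier results of these data known, so the counts are a description and nothing is read from them.

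Of the ligands, 10 of 12 listed genes had a row and 2 passed the filter. Ifng had 20.7, 11.9 and 21.6 normalized counts in PEG-glutaminase tumours, against 36.7, 31.4 and 51.0 in vehicle tumours, without overlap and with a log2 difference of -1.11 ± 0.33 (SE). Il4 averaged 19.9 ± 5.90 in PEG-glutaminase tumours and 30.9 ± 5.55 in vehicle tumours (SD, n = 3 each), with overlap. Il10 averaged 6.50 ± 3.23 in PEG-glutaminase tumours and 6.52 ± 3.18 in vehicle tumours, and Il13 reached at most 1.03 in PEG-glutaminase tumours and 1.96 in vehicle tumours. Ifnb1 had at most 2.06 in PEG-glutaminase tumours and 1.96 in vehicle tumours, Ifna4 reached 0.98 in vehicle 3 alone, and Ifna1, Ifna2, Ifnl2 and Ifnl3 were listed at 0 throughout, the values for these interferons being given although they fall outside the naming rule. limma called 0 of the 2 tested ligands, and their median log2 difference was -0.87, beside 0.00 over all tested genes.

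The kinases that serve the receptors had overlapping groups. Jak1 averaged 2570 ± 142 normalized counts in PEG-glutaminase tumours and 2570 ± 44.5 in vehicle tumours (SD, n = 3 each). The log2 differences were -0.03 ± 0.09 for Jak2, 0.01 ± 0.10 for Tyk2 and -0.16 ± 0.11 for Jak3 (SE). With 1 library left out the differences lay between -0.11 and 0.02 for Jak2, -0.08 and 0.05 for Tyk2 and -0.25 and -0.04 for Jak3. The median over the 4 kinases was -0.02, between -0.10 and 0.02 with 1 library left out, and limma and DESeq2 called 0 of them. Among 7 STAT genes the median was -0.32, and -0.12 without PEG-glutaminase 2, with 3 lower and 2 higher without overlap, limma called 0 and DESeq2 called 2 lower. The log2 differences were -0.97 ± 0.69 for Stat4 and -0.62 ± 0.22 for Stat2 (SE), and without PEG-glutaminase 2 they were -0.12 and -0.38. Without PEG-glutaminase 3 the difference of Stat4 was -1.48. PEG-glutaminase 2 held 3.96 normalized counts of Stat4, against 24.9 and 31.9 in the other PEG-glutaminase tumours and 25.5 to 40.2 in vehicle tumours. Stat3, the factor of the IL-10 receptor, stood at -0.32 ± 0.11 and Stat6, the factor of the IL-4 receptor, at 0.07 ± 0.07 (SE), and both were picked after their values were seen. Without PEG-glutaminase 2 the difference of Stat3 was -0.20, and without PEG-glutaminase 3 that of Stat6 was 0.04.

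Of the 6 remaining SOCS genes, all tested, 5 were higher and 1 lower, with a median log2 difference of 0.13, or 0.05 without vehicle 3, and 0 called by limma or DESeq2. Cish, induced by STAT5, stood at -0.45 ± 0.26, Socs7 at 0.27 ± 0.09, Socs4 at 0.20 ± 0.12 and Socs2 at 0.11 ± 0.18 (SE). The difference of Cish was -0.24 without PEG-glutaminase 2, and with 1 library left out that of Socs4 lay between 0.08 and 0.31 and that of Socs2 between -0.05 and 0.26. Among 10 other inhibitors the median was -0.03, between -0.05 and 0.01 with 1 library left out, with 0 called by limma or DESeq2. Usp18, which displaces JAK1 from IFNAR2, had 684, 256 and 628 normalized counts in PEG-glutaminase tumours, against 757, 920 and 880 in vehicle tumours, with a log2 difference of -0.82 ± 0.41 (SE), or -0.37 without PEG-glutaminase 2. Sh2b3 stood at 0.20 ± 0.07 and Ptpn11 at 0.12 ± 0.07 (SE).

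Of 8 related chains 4 passed the filter, all lower by log2 difference, with a median of -0.18 and 0 called by limma or DESeq2. This median was -0.30 without PEG-glutaminase 2 and -0.34 without PEG-glutaminase 3. Il20rb stood at -0.61 ± 0.38, or -0.27 without vehicle 1, and F3 at -0.23 ± 0.26 (SE), or 0.09 without PEG-glutaminase 2 and -0.46 without PEG-glutaminase 3. The difference of Il13ra2 was -0.09 ± 0.42 (SE) and lay between -0.59, without PEG-glutaminase 2, and 0.25, without PEG-glutaminase 1. The PEG-glutaminase mean of Il13ra2 was 107% of its vehicle mean. Of 7 gp130 family receptors 6 passed the filter, with a median of -0.15 and 0 called by limma. Removing PEG-glutaminase 1 gave a median of 0.0008, removing PEG-glutaminase 2 gave -0.09, and removing vehicle 3 gave -0.08. Il6st, which encodes gp130, stood at -0.05 ± 0.10, Lifr at 0.62 ± 0.30 and Lepr at -0.39 ± 0.50 (SE). With 1 library left out these lay between -0.12 and 0.02 for Il6st, 0.28 and 0.80 for Lifr and -0.85 and 0.06 for Lepr. Osmr, the oncostatin M receptor, had 212, 269 and 216 normalized counts in PEG-glutaminase tumours, against 154, 116 and 134 in vehicle tumours, and was called higher by DESeq2.

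The targets are genes known to be induced by each cytokine. With all 6 libraries the 16 interferon gamma targets were all lower by log2 difference, 15 without overlap, with a median of -0.90. limma called 0 of them and DESeq2 called 7 lower. Nos2, named because its groups overlapped, stood at -0.11 ± 0.42 (SE), although its PEG-glutaminase mean was 103% of its vehicle mean. With 1 library left out the difference of Nos2 lay between -0.53 and 0.33, the latter without PEG-glutaminase 2. Irf1, a transcription factor induced by interferon gamma, averaged 1986 ± 390 normalized counts in PEG-glutaminase tumours and 3181 ± 499 in vehicle tumours (SD, n = 3 each). Ido1 stood at -1.51 ± 0.96, and the GTPases Gbp2 and Gbp3 at -1.30 ± 0.44 and -1.30 ± 0.41 (SE). Without PEG-glutaminase 2, which held 3.96 normalized counts of Ido1, the differences were -0.44 for Ido1, -0.85 for Gbp2 and -0.87 for Gbp3. Of 15 type I interferon targets 13 passed the filter, all lower and 11 without overlap, with a median of -0.78, 0 called by limma and 4 called lower by DESeq2. Irf7 stood at -1.09 ± 0.43, Oasl2 at -0.96 ± 0.44 and Mx2 at -0.94 ± 0.37 (SE), and without PEG-glutaminase 2 these were -0.62 for Irf7, -0.49 for Oasl2 and -0.47 for Mx2.

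Without PEG-glutaminase 2 the medians were -0.55 for the interferon gamma targets and -0.47 for the type I targets. Over the whole lists, T and NK cell markers summed to 684 to 3776 normalized counts in PEG-glutaminase tumours and 4615 to 5321 in vehicle tumours, with 13 of 13 genes lower and none listed at 0 in all libraries. Of these T and NK genes 8 were lower without overlap and DESeq2 called 1 lower. Their median log2 difference was -1.59, or -0.62 without PEG-glutaminase 2. Dendritic cell markers summed to 3064 to 6032 in PEG-glutaminase tumours and 10305 to 17477 in vehicle tumours, with 8 of 10 lower and none listed at 0 in all libraries. Of this list 5 genes were lower without overlap and DESeq2 called 4 lower. That list includes the MHC class II genes H2-Aa and H2-Ab1, at -1.50 and -1.45, beside a list median of -0.83. Zbtb46 and Cd209a were higher. These genes fall outside the naming rule, and the sum was not read as a count of dendritic cells. The sums of both cell types were lower in the same tumours as Socs1, Socs3, Il13ra1 and the interferon targets. Their part in those differences was not tested.

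Of 16 IL-4 and IL-13 targets 12 passed the filter, 4 higher and 8 lower, with a median log2 difference of -0.13. Leaving out PEG-glutaminase 2 gave a median of -0.20, leaving out PEG-glutaminase 3 gave -0.32, and leaving out vehicle 1, 2 or 3 gave -0.19, 0.01 or -0.07. Mrc1, the mannose receptor of alternatively activated macrophages, had 5036, 8955 and 4725 normalized counts in PEG-glutaminase tumours, against 2117, 2078 and 2655 in vehicle tumours. The log2 difference of Mrc1 was 1.40 ± 0.27 (SE), and DESeq2 called it higher. Arg1 averaged 1711 ± 829 in PEG-glutaminase tumours and 1831 ± 703 in vehicle tumours (SD, n = 3 each), with overlap, and its log2 difference lay between -0.49 and 0.33 with 1 library left out. Pdcd1lg2 stood at -1.13 ± 0.46 and Ccl11 at 0.77 ± 0.49 (SE), and DESeq2 called 1 further target, the fatty acid carrier Cd36, lower at -0.57 ± 0.09 (SE). Without PEG-glutaminase 2 the differences were -0.57 for Pdcd1lg2 and 0.29 for Ccl11, and Ccl11 stood at 0.48 without vehicle 1 and 1.16 without vehicle 3.

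Of 12 IL-10 and STAT3 targets 3 were higher and 9 lower, with a median of -0.12, and removing PEG-glutaminase 1, PEG-glutaminase 2 or vehicle 3 gave medians of -0.20, -0.02 or -0.08. Il1rn, the IL-1 receptor antagonist, stood at -0.63 ± 0.43 with overlap, and Tnfrsf1b at -0.43 ± 0.13 (SE), and without PEG-glutaminase 2 these were -0.26 for Il1rn and -0.28 for Tnfrsf1b. Hmox1, haem oxygenase 1, averaged 2057 ± 292 normalized counts in PEG-glutaminase tumours and 1410 ± 67.2 in vehicle tumours (SD, n = 3 each), and DESeq2 called it higher. By pattern over the 6 libraries the genes most like Socs1 were Slamf9, the kinase gene Ripk2 and Ppfia4, with Pearson r of 0.99 each.

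**Figure D5:**
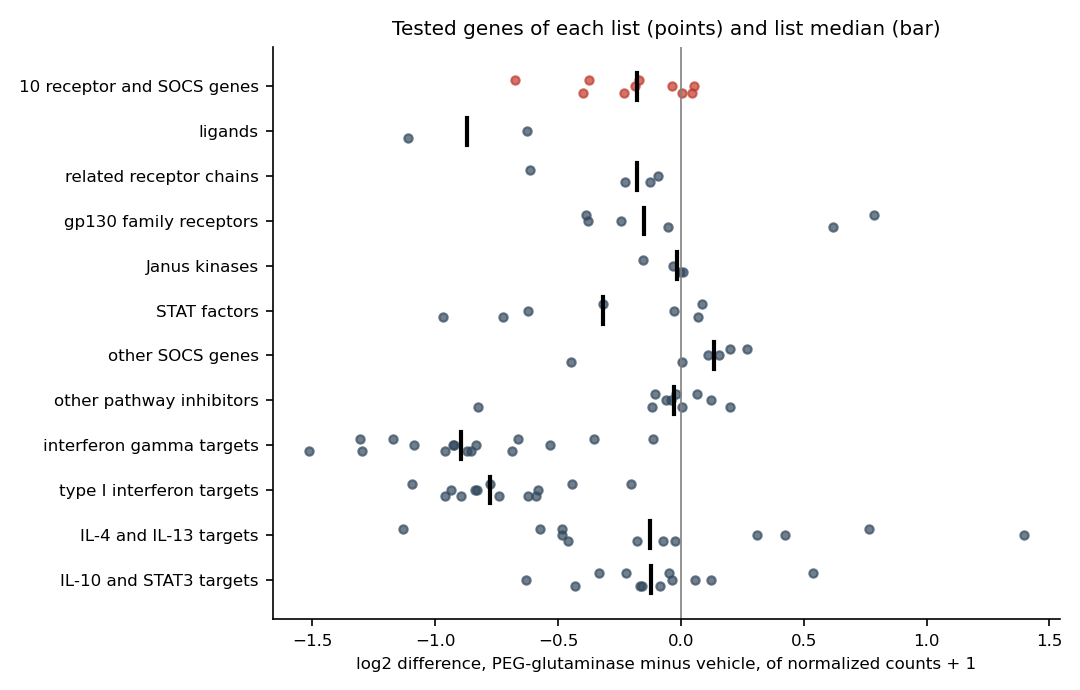
Log2 difference, PEG-glutaminase minus vehicle, of each tested gene of the 10 receptor and SOCS genes (top row) and of the pathway lists, with the median of each list as a bar. With all 6 libraries both lists of interferon targets lie wholly below 0, with medians of -0.90 and -0.78. The Janus kinases lie near 0, and Mrc1 is the point at 1.40 among the IL-4 and IL-13 targets.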

How the data were processed

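Messenger RNA was measured in 6 tumours, grouped by sample title. The deposited values are a signal in normalized counts: reads per BALB/cJ gene model, scaled by size factors. FastQC, STAR, featureCounts, DESeq2 and DESeq are the tools named in the submitters' processing notes. The sources used here give neither the build nor the strand setting nor the order of steps. The authors' own log2 fold changes, their standard errors, Wald scores and p-values (raw, adjusted) are in the same deposited table, per the file headers.

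Each gene model entered once (40303 of 40396 rows); models without a symbol, 2902 in number, held 0.13% to 0.214% of reads. Every non-zero value was a whole multiple of the worth of 1 read within 0.01, which gave the reads behind it. The worth of 1 read was the lowest non-zero value of each library, 0.966 to 1.04 normalized counts. It had no check from other data in any library. Genes averaging 10 or more were tested by limma 3.58.1 (R 4.3.3) on log2(value + 1), two-sided, with trend and robust estimation and Benjamini-Hochberg adjustment over 13557 genes. The values being normalized, limma was the planned test, and edgeR would have been for raw counts. Fold changes on this scale understate those of low genes. Alternatives were edgeR 4.0.16, DESeq2 1.42.0 and limma-voom on the reads, other pseudocounts, filters and scalings, the replicate number as a block, and left-out libraries. The p-values measure the spread between mice.

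The 10 genes and all lists were chosen with earlier results of these data known. Named list genes are the 3 of largest log2 difference, any called by limma, and a set named in the plan, except 1 that is not reported here. Transcript lengths, chromosomes and overlaps come from GENCODE M21 and promoters from RefSeq, neither of the assembly of the gene models.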

Additional observations from a re-analysis of the deposited data

How the results depend on the processing

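All 180 recomputed differences of the 10 genes (18 alternatives each) stayed within 1 within-group SD of the reported value. Most of them could not have done otherwise. The filters, the adjusted p of 0.1 and the replicate block leave these differences unchanged by construction. Leaving out 1 of the 3 libraries of a group cannot move a difference by 1 such SD. The count is therefore not read as a sign of stability. Signs turned only where the value was near 0 or rested on vehicle 3, in 2 alternatives each for Ifnar1, Ifngr2 and Il4ra and 1 for Il10ra. The count of genes called over the whole table, 5 by limma, was 136 with no filter on low values (1 of the 10, Il13ra1, among them), 9 at an adjusted p of 0.1, and 500 by DESeq2 (1 of the 10, again Il13ra1); it stayed at 5 with edgeR, voom, TMM scaling and the other pseudocounts. Leaving out 1 library gave 0 to 26 called genes, 0 of them among the 10 each time. It was 0 without vehicle 1, vehicle 2 or PEG-glutaminase 1, with 2366, 1683 and 1936 genes at an unadjusted p under 0.05, 20 without PEG-glutaminase 2 and 26 without PEG-glutaminase 3. With the replicate block limma called 1 gene and 0 of the 10. Deviations of same-numbered libraries from their group means correlated at -0.129, -0.214 and -0.22 across genes, so the numbers were not taken to pair the mice. No causes were tested.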

Other observations

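The fold changes in the authors' deposited table were not made from the 6 libraries alone. The lowest mean above 0 in the authors' deposited table is 0.12 normalized counts, whereas 1 read in 1 of 6 libraries gives a mean of at least 0.161. In addition, 567 of the 17075 gene models listed at 0 in all 6 libraries have a mean above 0 in the authors' deposited table. For 9 of the 10 genes its mean lay within 3% of the mean of the 6 libraries. The exception was Socs3, with a mean of 1901 in the authors' deposited table, against 1718 over the 6 libraries.

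The authors' deposited table gives Socs3 a log2 fold change of -0.01 ± 0.30 (SE), where the 6 libraries gave -0.40 ± 0.12 (SE). For Il13ra1 the authors' deposited table gives -0.33 ± 0.20 (SE), where the 6 libraries gave -0.67 ± 0.11 (SE), and for Socs1 it gives -0.23 ± 0.14 (SE), where the 6 libraries gave -0.37 ± 0.13 (SE). The sign was the same in both for 8 of the 10 genes. The values that make up this difference were not analysed here, and its cause was not tested.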
